A study of Mus musculus with 21 samples.

Results

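The genes described are Hmga1, Hmga2, Lin28b, Igf2bp1, Igf2bp2 and Igf2bp3, 6 of the 55573 genes in the deposited tables, taken by gene symbol. They were measured in 21 RNA sequencing libraries of E0771 cells, a mouse breast cancer line that here carries GFP, with 3 libraries in each of 7 groups. By the labels, the study compared cells with and without added ZBTB18, a zinc finger repressor of transcription, and metastatic with parental cells. The TGF-β1 group and the vehicle group were ZBTB18-overexpressing cells with a doxycycline-inducible TGFBR2, both given doxycycline (1 mg/mL as the label writes it), the first with TGF-β1 at 2 ng/mL and the second with vehicle. The ZBTB18 group overexpressed ZBTB18 without that receptor, and the empty vector group was its control. M11 and M12 were lines recovered from lung metastases that E0771GFP cells formed spontaneously, and the parental group was untreated E0771GFP. The labels do not say whether the 3 libraries of a group came from separate cultures, so errors and p-values measure the spread between these libraries, which may be technical. Each of the engineered and metastatic groups was a single line, and differences between lines other than the one named cannot be told apart from it.

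Genes are called oncofetal when they are high in the embryo, lower in most adult tissues and high again in tumours. LIN28B is an RNA-binding protein that blocks the maturation of the let-7 microRNAs, and let-7 in turn lowers mRNAs that carry its seed match, among them those of Hmga2, Lin28b and the Igf2bp genes. HMGA1 and HMGA2 are small proteins that bend DNA at AT-rich stretches and open chromatin. IGF2BP1, IGF2BP2 and IGF2BP3 bind mRNAs, several of them through the m6A modification, and stabilise them. The members were chosen by their known roles and with their CPM in these groups in view, so their levels and differences are given as a description, without a test. Companion genes were tested.

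The total count per library ran from 24208569 to 90518872, and in parental replicate 1 a single transcript, Gm42418, took 14% of the counts, against at most 0.0918% in the other libraries. Zbtb18 averaged 95.2 ± 4.3 CPM in the TGF-β1 group, 82.9 ± 6.49 in the vehicle group, 112.9 ± 9.64 in the ZBTB18 group, 25.1 ± 0.910 with empty vector, 34.7 ± 4.23 in M11, 59.2 ± 9.96 in M12 and 29.5 ± 1.40 in the parental line (SD, n = 3 each). Tgfbr2 stood at 604.2 ± 17.4 and 587.9 ± 32.7 CPM in the TGF-β1 and vehicle groups. It was at 26.6 ± 0.439 CPM with empty vector, 21.4 ± 1.05 in M11, 19.3 ± 1.84 in M12 and 13.8 ± 0.805 in the parental line. The ZBTB18 group had the lowest level, 1.74 ± 0.253 CPM. CPM here are counts scaled to depth by TMM, used to compare a gene between groups, and TPM, which also correct for length, are used to compare genes. Of 7 epithelial keratins and junction genes listed as markers, Krt8 passed 1 TPM on average in every group Epcam in all but the parental line and Krt18 in M12 alone (3.19 ± 1.03 TPM), while Cldn7 had no value above 0. Cdh1, the epithelial cadherin, was at or below 0.0433 TPM on average in all 7 groups. Of 5 immune markers Cd68 was the one above 1 TPM, at 49.9 ± 38.8 TPM in M12 and between 5.15 and 16.7 TPM on average elsewhere, and Cd3e was at 0 in all groups. The summed level of 6 fibroblast markers was 249 to 358 TPM in M11 and 34.6 to 41.7 TPM in parental libraries, and most of that difference was Col3a1, a collagen chain, at 279.0 ± 53.1 TPM in M11 and 13.3 ± 0.771 TPM in the parental line. Pdgfra was at 27.3 and 16.03 TPM and Pdgfrb at 11.3 and 7.07 TPM in the same lines, whereas Col1a1 was at 0.22 TPM in M11 and 1.18 TPM in the parental line, and Dcn and Lum averaged 0.0233 TPM or less in every group. Of 4 endothelial markers Pecam1 passed 1 TPM, in M11 alone (1.73 ± 0.17 TPM, against 0.103 ± 0.0643 TPM in the parental line). Of 4 lung epithelial markers Ager did, in M11 alone (1.05 ± 0.274 TPM, against 0.80 ± 0.305 TPM in the parental line), and Scgb1a1 was at 0 in all groups. The part of these markers in the results was not tested.

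Seed matches in the 3′ untranslated regions are shown because all 6 members hold at least one. The let-7 family has 11 mature entries in RefSeq (build GRCm38.p6), and 10 of them share one seed, bases 2 to 8, in capitals here. The Hmga2 and Lin28b sites follow, each read on the minus strand of build mm10 with the reverse complement of that seed in capitals.
let-7a-5p: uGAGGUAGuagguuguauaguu
Hmga2 site 1, chr10:120364217-120364246: gccgacattcaatttCTACCTCagcatcag
Hmga2 site 2, chr10:120362980-120363009: ccccactcctcaataCTACCTCtgaatgct
Hmga2 site 3, chr10:120362542-120362571: ctgatttgcaaggaaCTACCTCcacacttc
Hmga2 site 4, chr10:120361684-120361713: aatcaaaacacactaCTACCTCttaagtcc
Lin28b site 1, chr10:45381015-45381044: acccgggcgggaagtCTACCTCatgcaagc
Lin28b site 2, chr10:45378641-45378670: tatacttgttagtaaCTACCTCtgagtttg
Lin28b site 3, chr10:45378469-45378498: gtttacagcacatggCTACCTCccagctac
Lin28b site 4, chr10:45377053-45377082: aaatgatggcaccgaCTACCTCttcaatca

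Hmga2 held 4 such matches in an annotated 3′ untranslated region of 3014 bases, Lin28b 4 in 4445 bases and Igf2bp1 4 in 6337 bases. Hmga1, Igf2bp2 and Igf2bp3 held 1 each, in 1183, 1784 and 2119 bases. The match is the 7 letters CTACCTC in the sequence of the mRNA, written with T for U, and 7 of the 15 matches were followed by an A. Of 12128 tested genes with an annotated 3′ untranslated region, 10.5% held at least 1 match and 1.29% held 2 or more. Among the 3425 with at least 2000 bases the shares were 20.8% and 3.91%. A match is a run of letters and not a measured site. Mature let-7 was not measured in these polyA libraries, and its hairpin precursors are listed at 0.

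Lin28b (ENSMUSG00000063804.8, chr10:45376620-45486395, minus strand, protein coding), the only one of the 6 that acts on let-7 maturation itself, was detected in 5 groups and nearly absent from the other 2. It had 0, 0 and 0 CPM in the TGF-β1 group and 0.0111, 0 and 0 CPM in the vehicle group. The ZBTB18 group had 0.618, 0.187 and 0.438 CPM, and the empty vector libraries had 3.61, 3.33 and 3.49 CPM. M11 had 0.623, 0.532 and 0.366 CPM and M12 had 0.802, 1.07 and 0.684 CPM, against 2.46, 2.42 and 3.69 CPM in the parental line. The libraries fell into a high pair of groups, empty vector and parental, whose values overlapped, and 5 groups that lay below every library of that pair. In bulk RNA, fewer cells with the transcript and less of it per cell cannot be told apart. Even at its highest the level was low, with a mean of 0.960 ± 0.050 TPM with empty vector and 0.660 ± 0.270 TPM in the parental line.

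Between the ZBTB18 and empty vector groups the fitted log2 difference of Lin28b was -3.05 (SE 0.32), 8.30-fold lower, from 65 reads in the ZBTB18 group and 542 with empty vector. It was -2.45 (SE 0.32) for M11 over parental and -1.73 (SE 0.30) for M12 over parental, and M11 lay below M12 with no overlap (-0.71, SE 0.34). Empty vector over parental gave 0.29 (SE 0.27) with overlapping libraries. The vehicle group held a single read, against 65 in the ZBTB18 group. The ZBTB18 group was thus 78.6 times higher by the ratio of scaled reads, with an exact conditional binomial 95% interval of 13.6 to 3153 that covers counting error only. The TGF-β1 group held 0 reads, which allows up to 0.0166 CPM at a count of 3 over the group. As both receptor groups lie under that floor, no fold is given between them. These groups share libraries: the ZBTB18, empty vector, vehicle, M11, M12 and parental libraries each enter more than 1 comparison, so the directions are not independent of each other.

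**Figure D1:**
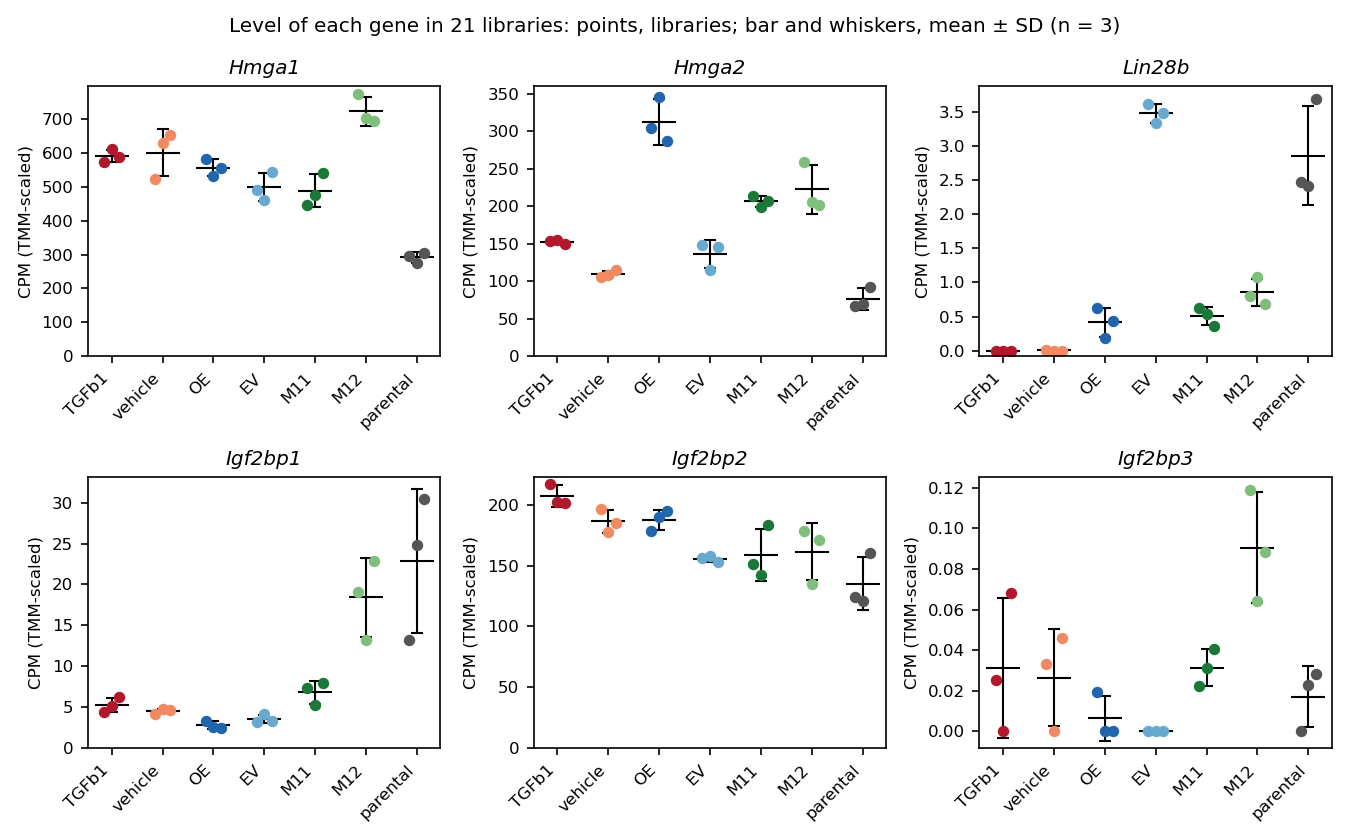
Level of each of the 6 genes in CPM (vertical axes, linear, each panel with its own range) in the 7 groups, where OE is ZBTB18 overexpression and EV empty vector. Points are single libraries, and the bar with whiskers is the mean ± SD of 3. Lin28b is high in EV and parental libraries alone, Hmga2 peaks at 312.9 CPM in OE, and Igf2bp1 is above 13 CPM in M12 and parental libraries.

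The RefSeq promoter of Lin28b is shown because this is the member with the largest difference between the ZBTB18 and empty vector groups, and ZBTB18 is known to bind E-box-like sequence with the core CATCTG. The 300 bases lie at chr10:45470152-45470451 on the minus strand of build GRCm38.p6, inside the span that GENCODE gives the gene, and the core, read on the other strand as CAGATG, is in capitals.
Lin28b promoter: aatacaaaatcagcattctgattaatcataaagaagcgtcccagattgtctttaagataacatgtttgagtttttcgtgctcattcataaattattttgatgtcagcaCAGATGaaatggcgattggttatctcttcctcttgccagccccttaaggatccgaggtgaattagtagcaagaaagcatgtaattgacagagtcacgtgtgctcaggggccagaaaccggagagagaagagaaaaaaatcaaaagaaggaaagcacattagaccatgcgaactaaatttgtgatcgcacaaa
Searched on both strands, CATCTG was found once in this window and in none of the windows of Hmga1, Hmga2, Igf2bp2 and Igf2bp3. The table has no entry for Igf2bp1. Of 32851 promoters of this length, 17.2% hold it at least once, and nothing follows from it about binding.

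Hmga1 was the most abundant of the 6 in TPM in every group. Hmga1 (ENSMUSG00000046711.16, chr17:27556497-27563674, plus strand) had 574.1, 610.9 and 588.9 CPM in the TGF-β1 group, 522.8, 628.1 and 651.9 in the vehicle group, 581.5, 531.9 and 556.6 in the ZBTB18 group and 490.3, 461.7 and 544.7 with empty vector. M11 had 446.2, 477.0 and 541.0 CPM, M12 had 772.7, 701.8 and 695.4 CPM, and the parental line had 296.0, 274.6 and 304.5 CPM. M12 lay above every other library and the parental line below every other one, while the 5 groups between them overlapped with their neighbours in the order of means. The highest group mean was 2.48 times the lowest. Hmga1 was higher in both metastatic lines than in the parental line, by 0.74 (SE 0.094) on the log2 scale in M11 and 1.31 (SE 0.095) in M12, and M11 was lower than M12 (-0.57, SE 0.094). It was also higher with empty vector than in the parental line (0.77, SE 0.094). The libraries overlapped between ZBTB18 and empty vector (0.16, SE 0.093), TGF-β1 and vehicle (-0.02, SE 0.093) and vehicle and ZBTB18 (0.11, SE 0.093).

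Hmga1 has a near-identical single-exon copy, Hmga1b (chr11:120762794-120764419, plus strand), whose transcript matches that of Hmga1 at 1599 of 1602 aligned bases. Reads from either can be assigned to the other, so the level of Hmga1 alone is uncertain. Hmga1b was given 530.1 ± 3.39 CPM in M12 and 215.1 ± 9.53 CPM in the parental line. With the reads of the pair summed, the log2 differences were 1.31 for M12 over parental, 0.73 for M11 over parental, 0.68 for empty vector over parental and 0.20 for ZBTB18 over empty vector.

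Hmga2 (ENSMUSG00000056758.14, chr10:120361275-120476469, minus strand) was highest with ZBTB18, at 304.7, 346.5 and 287.4 CPM, whereas the empty vector libraries held 149.0, 115.4 and 145.4 CPM. It had 153.2, 155.3 and 149.5 CPM in the TGF-β1 group, against 106.2, 108.4 and 114.6 CPM in the vehicle group. M11 had 213.7, 199.2 and 207.6 CPM and M12 had 259.5, 206.1 and 201.9 CPM, against 66.6, 69.8 and 92.7 CPM in the parental line. Each of these pairs was set apart without overlap, and in the order of group means only M12 and M11 overlapped as neighbours. The gap between the TGF-β1 group and empty vector was narrow, with a lowest library of 149.5 and a highest of 149.0 CPM. The group with the highest mean had 4.1 times the mean of the lowest.

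Hmga2 was 2.29-fold higher with ZBTB18 than with empty vector (log2 1.19, SE 0.12). It was 1.39-fold higher with TGF-β1 than with vehicle (0.48, SE 0.12). M11 and M12 stood 2.71-fold (1.44, SE 0.12) and 2.91-fold (1.54, SE 0.12) above the parental line, and did not separate from each other (-0.11, SE 0.12). Empty vector was itself above parental, by 0.84 (SE 0.12). The vehicle group, which carries the ZBTB18 construct, the inducible TGFBR2 and doxycycline, was 2.85-fold lower than the ZBTB18 group (-1.51, SE 0.12). It lay below every empty vector library by a narrow gap, with a highest vehicle library of 114.6 and a lowest empty vector library of 115.4 CPM. The effects of the receptor, doxycycline and the line cannot be told apart here. Hmga2 and Lin28b stood in opposite order between ZBTB18 and empty vector and between each metastatic line and the parental line, and both were lower in the vehicle group than in the ZBTB18 group.

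In TPM, Hmga1 exceeded Hmga2 in every group. The shares below leave out Hmga1b, which was given a higher mean TPM than Hmga1 in every group. With ZBTB18 these were 990.9 ± 31.6 and 651.4 ± 21.7 TPM, and with empty vector 680.4 ± 452.2 and 568.2 ± 50.4 TPM. As reads of Hmga1 and Hmga1b can be assigned to either, the shares are uncertain and would be lower with Hmga1b counted. Hmga2 made up 16.3 ± 1.79% of the summed TPM of the pair with ZBTB18 and 8.65 ± 0.928% with empty vector, 8.04 ± 0.271% with TGF-β1 and 5.83 ± 0.555% with vehicle. The share was 12.6 ± 1.12% in M11, 9.44 ± 0.703% in M12 and 8.15 ± 1.16% in the parental line. M11 and M12 both had more of each gene than the parental line.

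The IGF2BP genes spanned the range from abundant to nearly absent. Igf2bp1 (ENSMUSG00000013415.9, chr11:95957163-96005940, minus strand) had 4.42, 5.08 and 6.17 CPM in the TGF-β1 group and 4.17, 4.68 and 4.66 CPM in the vehicle group. The ZBTB18 group had 3.28, 2.57 and 2.37 CPM and the empty vector group 3.20, 4.07 and 3.25 CPM. M11 had 7.28, 5.20 and 7.90 CPM, M12 had 19.1, 13.2 and 22.9 CPM, and the parental line had 13.2, 24.9 and 30.4 CPM. M12 and the parental line overlapped and stood above all other libraries, and the group with the highest mean was 8.33 times the one with the lowest.

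Igf2bp1 was 2.71-fold lower in M11 than in M12 (log2 -1.44, SE 0.25) and 3.37-fold lower in M11 than in the parental line (-1.75, SE 0.25), while M12 over parental was -0.31 (SE 0.24) with overlap. Among the 7 comparisons the largest difference was between the empty vector and the parental groups, 6.54-fold lower with empty vector (-2.71, SE 0.26). It was not set apart between ZBTB18 and empty vector (-0.35, SE 0.26) or between TGF-β1 and vehicle (0.22, SE 0.25), and it was higher in the vehicle group than in the ZBTB18 group (0.71, SE 0.26). On the TPM scale the difference of empty vector and parental means was -1.91 in place of -2.71. Parental replicate 1, the library with the high Gm42418 share, had the lowest Igf2bp1 of its group. Without it the differences were -2.97 for empty vector over parental, -2.03 for M11 over parental and -0.59 for M12 over parental.

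Igf2bp2 (ENSMUSG00000033581.17, chr16:22059009-22163299, minus strand) was the steadiest member, with all 21 libraries between 121.0 and 217.6 CPM and group means within 1.53-fold of each other. The TGF-β1 group had 217.6, 202.8 and 201.4 CPM against 196.5, 178.0 and 185.7 CPM with vehicle, which did not overlap (log2 0.15, SE 0.11). The ZBTB18 group had 178.8, 190.0 and 195.1 CPM, above the 156.1, 157.8 and 153.2 CPM of the empty vector libraries, again without overlap (0.27, SE 0.11). M11 ranged between 142.5 and 183.3 CPM, M12 between 134.9 and 178.4 CPM and the parental line between 121.0 and 160.3 CPM, and these overlapped.

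Igf2bp3 (ENSMUSG00000029814.10, chr6:49085223-49214957, minus strand), an oncofetal antigen in many human tumours, was close to absent. It had 11 reads in the 3 M12 libraries, 6 in the TGF-β1 group, 5 in the vehicle group, 3 in M11, 2 in the parental line, 1 in the ZBTB18 group and 0 with empty vector, where 3 reads would correspond to 0.0195 CPM. No library had more than 4 reads, so the gene did not pass the filter on low counts and was not fitted. Ratios of so few reads are loose. By exact conditional binomial 95% intervals, for counting error only, M12 over parental was 5.01 (1.09 to 46.5), M11 over M12 was 0.338 (0.0605 to 1.28) and vehicle over ZBTB18 was 4.13 (0.463 to 195.5).

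Summed over the 3 IGF2BP genes, the level was 101.6 ± 3.09 TPM with TGF-β1 and 91.2 ± 3.47 with vehicle, 90.8 ± 6.53 with ZBTB18 and 75.8 ± 0.455 with empty vector, and 75.6 ± 15.6 in M11, 86.3 ± 11.8 in M12 and 64.8 ± 21.1 in the parental line. Igf2bp2 supplied nearly all of it. These sums set groups side by side in TPM, where the low parental level is more marked than in CPM. For Igf2bp2, empty vector over parental was 0.46 on the log2 TPM scale and 0.21 (SE 0.11) in the fit. The cause of this gap was not tested. The share of Igf2bp1 was 5.71 ± 0.703% in M11, 13.5 ± 2.18% in M12 and 18.3 ± 5.52% in the parental line, and between 2.17 and 4.30% on average in the other 4 groups.

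**Figure D2:**
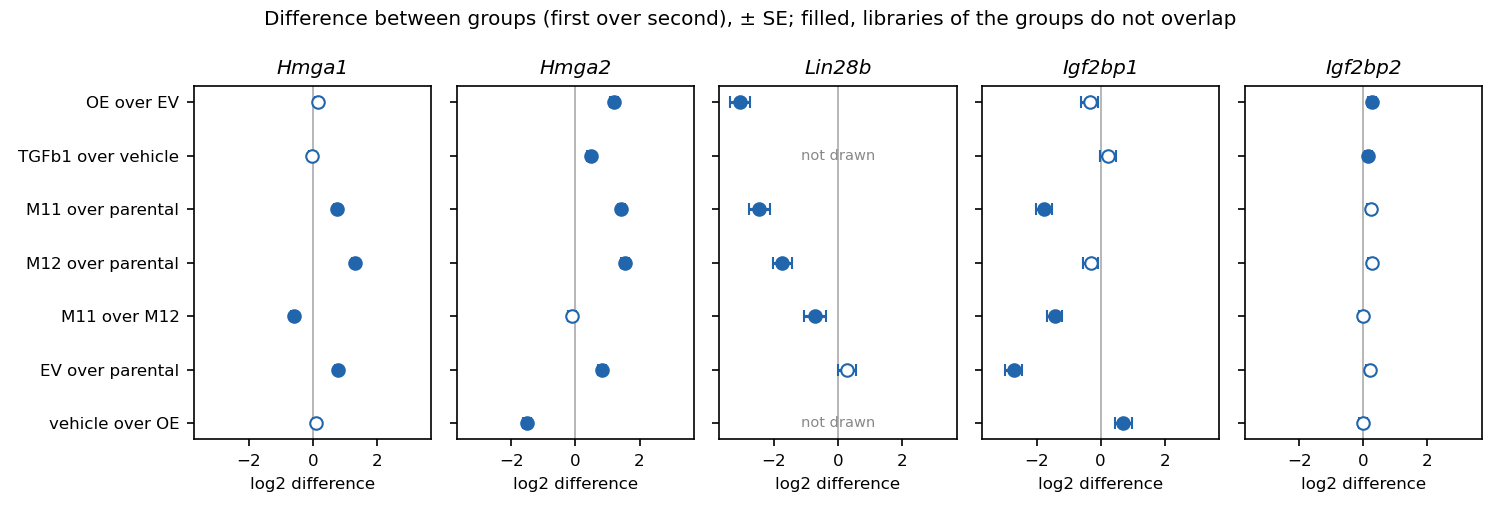
Fitted log2 differences (horizontal axes, ± SE) of the 5 fitted genes in the 7 comparisons, named as the first group over the second. Filled points mark comparisons in which no library of one group overlaps the other, and 2 Lin28b values that rest on 1 read or fewer in a group are not drawn. Hmga2 is right of 0 for OE over EV (1.19) and left of it for vehicle over OE (-1.51), and Igf2bp2 stays near 0 throughout.

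Read across the members, a fold of at least 2 without overlap between libraries was met by 2 of 5 fitted members between ZBTB18 and empty vector (Hmga2 higher, Lin28b lower), where 9.15% of all 15432 fitted genes met it. It was met by 0 of 5 between TGF-β1 and vehicle, where 1.47% of genes met it. Between M11 and parental it was met by 3 (Hmga2 higher, Lin28b and Igf2bp1 lower; 11.7% of genes), and between M12 and parental by 3 (Hmga1 and Hmga2 higher, Lin28b lower; 14.8% of genes). Igf2bp1 alone met it between M11 and M12 (9.47% of genes) and between empty vector and parental (16.1% of genes), both times lower. Hmga2 and Lin28b met it between vehicle and ZBTB18, both lower (12.5% of genes). As the members were chosen with such values in view, these counts say nothing about the set.

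Hmga2 and Lin28b lie on chromosome 10, and that chromosome leaned to lower values between ZBTB18 and empty vector. Its 720 fitted genes had a median log2 difference of -0.27, against 0.01 over all genes, and 36.8% of them were lower and 5.42% higher at an adjusted p below 0.05 by edgeR's quasi-likelihood test, where 14.5% and 14% of all genes were. Chromosome 13 leaned further, with 39.6% lower and 3.15% higher. Of the 10 fitted genes nearest to Lin28b, 5 on each side over 6.63 Mb, 8 fell and 0 rose with ZBTB18. These included Prdm1, a repressor of transcription (log2 -2.32, adjusted p = 1.03e-05), Sim1, a transcription factor of the hypothalamus (-0.74, adjusted p = 0.00103), and Atg5, which builds autophagosomes (-0.52, adjusted p = 0.000123), in the same edgeR fit. These 3 have the smallest adjusted p of the 10 and were chosen after their values were seen. The genes next to Lin28b were Prep (-0.47) and Hace1 (-0.29), which fell, and Gm6983 had a value above 0 (0.59, adjusted p = 0.0641).

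Around Hmga2 the neighbours went in both directions. Of 10 over 2.51 Mb, 2 rose and 2 fell with ZBTB18, with a median of -0.18 beside 1.19 for Hmga2. The next gene on the far side, 4930471E19Rik, was among those that rose (log2 1.57, adjusted p = 0.00571, edgeR). Between M11 and parental 1 of the same 10 was higher and 6 were lower, beside 1.44 for Hmga2, and between M12 and parental 1 was higher and 4 were lower. The neighbours of Lin28b were 1 higher and 5 lower in M11 than in the parental line, where 40.7% of all genes passed the test, and 0 and 4 in M12, where 50.1% did. Chromosome 10 had a median of -0.07 in M11 over parental, with 19.03% higher and 25.7% lower. In M12 over parental its median was -0.32 against -0.01 over all genes, close to those of chromosomes 8 (-0.32) and 6 (-0.30). Between vehicle and ZBTB18, where Lin28b was lower as well, 3 of its 10 neighbours were higher and 1 was lower (median 0.02). There 38.8% of all genes passed the test. Chromosome 10 had a median of 0.03 in that comparison, with 19.7% higher and 15.8% lower. Whether a difference over the chromosome has a part in the lower Lin28b was not tested.

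**Figure D3:**
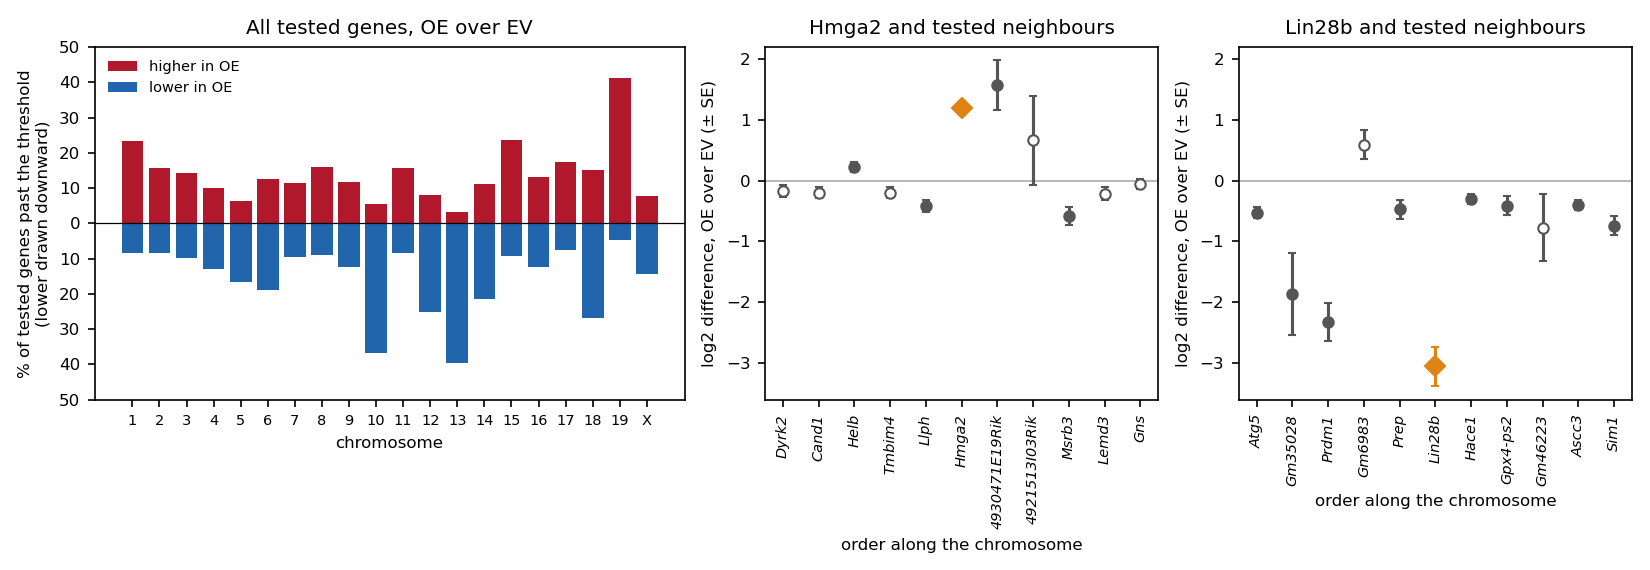
Left, percent of the fitted genes of each chromosome past the adjusted threshold in ZBTB18 over empty vector (OE over EV), higher drawn up and lower drawn down. Middle and right, log2 differences (± SE) of Hmga2 and Lin28b (diamonds) and of 5 fitted genes on each side, evenly spaced in chromosomal order, filled where past the threshold. Of the genes around Lin28b 8 of 10 are lower, whereas those around Hmga2 fall on both sides of 0.

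Companion genes came from 8 lists with 156 genes in all, of which 126 were fitted, and none is one of the 6. Between ZBTB18 and empty vector, 16 rose and 23 fell at an adjusted p below 0.05 (edgeR quasi-likelihood test over all genes), 31.0% of them beside 28.4% of all genes. Between M11 and parental 34 rose and 17 fell (40.5% beside 40.7% of all genes), between M12 and parental 40 rose and 32 fell (57.1% beside 50.1%), and between M11 and M12 31 were higher and 18 lower in M11 (38.9% beside 35.5%). Between empty vector and parental 63 were higher and 15 lower (61.9% beside 58% of all genes), and between vehicle and ZBTB18 22 were higher and 38 lower (47.6% beside 38.8%). Between TGF-β1 and vehicle 2 rose and 0 fell (1.59% beside 1.91%).

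Of 23 fitted genes of let-7 and microRNA processing 3 rose and 2 fell with ZBTB18 (21.7% beside 28.4% of all genes). Their median log2 was 0.06 beside 0.01 for all genes. Tut7, a terminal uridylyltransferase that tails pre-let-7, fell to 57.6 ± 3.36 CPM with ZBTB18, where empty vector had 79.7 ± 1.62 CPM (log2 -0.47, SE 0.071, adjusted p = 3.34e-05, edgeR). Ago4, an Argonaute protein, fell by 0.77 (SE 0.18, adjusted p = 0.00289, and 0.0560 by limma on log2(TPM + 0.1)), and Prkra, a partner of Dicer, rose by 0.68 (SE 0.20, adjusted p = 0.0117), a call lost without ZBTB18 replicate 2 (adjusted p = 0.0519). Lin28a, the paralog of Lin28b, had at most 4 reads in any group and was not fitted. Trim71, an RNA-binding protein that is itself a let-7 target in the embryo, was detected in all groups, at 20.8 ± 1.16 CPM in M11 and 33.1 ± 12.2 CPM in M12 (log2 -0.67, SE 0.17, adjusted p = 0.00341).

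In this list 8 rose and 2 fell in M11 over parental (43.5% beside 40.7% of all genes). In M12 over parental 7 rose and 4 fell (47.8% beside 50.1%). Ago4 was lower in both lines, by 0.91 (SE 0.19, adjusted p = 0.000560) in M11 and 0.94 (SE 0.19, adjusted p = 0.000243) in M12, in edgeR. With TGF-β1, Tut4, the other uridylyltransferase of pre-let-7, was at 55.5 ± 1.66 CPM against 44.6 ± 2.46 CPM with vehicle (log2 0.32, adjusted p = 0.0493), and the call was lost without any 1 of the 6 libraries. Ercc1, a DNA repair endonuclease subunit from the HMGA list, was the other of the 2 companion genes past the threshold, at 15 ± 1.01 CPM with TGF-β1 against 8.0 ± 0.525 CPM with vehicle (0.91, SE 0.15, adjusted p = 0.00184). The labels give replicate numbers but state no pairing. Same-numbered libraries of these groups deviated together, which the main fit does not take into account. With a replicate block the count of companion genes was 4 over all 21 libraries and 38 in the 6 libraries alone, and the count over all genes was 411 and 3623 in place of 295.

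Of 21 fitted genes listed as let-7 targets, 3 rose and 5 fell with ZBTB18 (38.1% beside 28.4% of all genes, median log2 -0.04). Plag1, an oncofetal zinc finger activator, rose to 18.6 ± 1.504 CPM with ZBTB18, where empty vector had 9.12 ± 0.986 CPM (1.02, SE 0.15, adjusted p = 1.65e-05, edgeR), while Arid3a, a DNA-binding protein of fetal B cells, fell (-1.04, SE 0.15, adjusted p = 2.84e-05). In M12 over parental 5 rose and 8 fell (61.9% beside 50.1% of all genes). Those that fell included Irs2, an adaptor of insulin and IGF receptors, at 12.1 ± 1.84 CPM in M12 against 29.8 ± 1.20 CPM in the parental line (-1.30, SE 0.13, adjusted p = 2.94e-08), and E2f2, a cell cycle transcription factor (-1.25, SE 0.10, adjusted p = 2.83e-09). In M11 over parental 4 rose and 5 fell (42.9% beside 40.7% of all genes), with Plag1 higher (1.05, SE 0.15, adjusted p = 6.91e-06) and E2f2 lower (-0.56, SE 0.10, adjusted p = 0.000157). The E2f2 call was not past the threshold in limma on TPM.

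Ligands of the IGF pathway were not detected as more than traces. Igf2, whose mRNA gives the IGF2BP family its name, had at most 11 reads in any group and was not fitted. Of 9 fitted genes of IGF signalling, 2 rose and 2 fell with ZBTB18 (44.4% beside 28.4% of all genes). Stc1, which binds and blocks the protease PAPP-A, had 0 reads in the ZBTB18 group and 335 with empty vector, at least 112-fold lower against a floor of 3 reads over the group (adjusted p = 3.25e-07, edgeR). Pappa2, a protease that cuts IGF-binding proteins, rose to 7.99 ± 0.965 CPM with ZBTB18, where empty vector had 3.59 ± 0.806 CPM (1.14, SE 0.18, adjusted p = 4.31e-05, and 0.0703 by limma on log2(TPM + 0.1)). Igf2r, the receptor that clears IGF2, rose as well (0.89, SE 0.14, adjusted p = 5.33e-05).

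In M11 over parental 5 of these 9 genes rose and 0 fell (55.6% beside 40.7% of all genes), with a median log2 of 0.37. In M12 over parental 3 rose and 3 fell (66.7% beside 50.1%), with a median of -0.08. Irs2, which is also on the list of let-7 targets, was among those that fell in M12 (-1.30, SE 0.13, adjusted p = 2.94e-08, edgeR). Pappa2 was at 31.6 ± 4.23 CPM in M11 and 36.8 ± 6.61 CPM in M12, against 0.905 ± 0.154 CPM in the parental line, 35.1-fold (adjusted p = 2.30e-13) and 40.9-fold (adjusted p = 6.44e-14) higher in edgeR. Igf2r was 6.31-fold higher in M11 (adjusted p = 1.49e-11) and 4.74-fold higher in M12 (adjusted p = 9.82e-11). In the vehicle group Pappa2 stood at 0.288 ± 0.106 CPM, against 7.99 ± 0.965 CPM with ZBTB18 (-4.69, SE 0.23, adjusted p = 1.38e-12). M11 was higher than M12 in 5 of the 9 and lower in 1 (66.7% beside 35.5% of all genes). Igfbp4, an IGF-binding protein, was at 376.4 ± 70.4 CPM in M11 and 193.3 ± 9.84 CPM in M12 (0.96, SE 0.10, adjusted p = 2.99e-07).

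Genes that write, erase and read m6A, the mark that the IGF2BP proteins recognise, were all fitted. Of 20, 1 rose and 1 fell with ZBTB18, 10% beside 28.4% of all genes. They were Ythdc2, a helicase reader (0.58, SE 0.084, adjusted p = 1.85e-05, edgeR), and Cbll1, a writer subunit (-0.36, SE 0.086, adjusted p = 0.00282), whose call was lost in limma on TPM. In M12 over parental 6 rose and 3 fell (45% beside 50.1% of all genes). Rbm15, a writer subunit, was at 54.2 ± 11.3 CPM in M12 against 28.0 ± 3.43 CPM in the parental line (0.95, SE 0.13, adjusted p = 3.65e-06), and Mettl14, the partner of the methyltransferase METTL3, was also higher (0.52, SE 0.087, adjusted p = 4.40e-05). In M11 over parental 4 rose and 1 fell (25% beside 40.7% of all genes).

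Of 20 fitted mRNAs named in the literature as IGF2BP clients, 4 rose and 4 fell with ZBTB18 (40% beside 28.4% of all genes, median log2 -0.03). Gli1, the Hedgehog effector whose mRNA IGF2BP1 binds, fell to 2.00 ± 0.299 CPM, where empty vector had 13.0 ± 2.73 CPM (-2.69, SE 0.42, adjusted p = 0.000114, edgeR). It also fell in M11 (-2.72, SE 0.40, adjusted p = 3.90e-05) and in M12 (-3.09, SE 0.41, adjusted p = 7.86e-06) relative to the parental line, at 6.13 ± 0.473 and 4.69 ± 4.19 CPM against 40.4 ± 3.94 CPM. Ptgs2, the inducible cyclooxygenase, rose with ZBTB18 (1.11, SE 0.24, adjusted p = 0.00134), in M11 (2.95, SE 0.29, adjusted p = 5.35e-08) and in M12 (4.60, SE 0.28, adjusted p = 3.16e-11). In M12 over parental 10 of the 20 rose and 3 fell (65% beside 50.1% of all genes), beside a median of 0.29. In M11 over parental 8 rose and 3 fell (55% beside 40.7% of all genes).

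**Figure D4:**
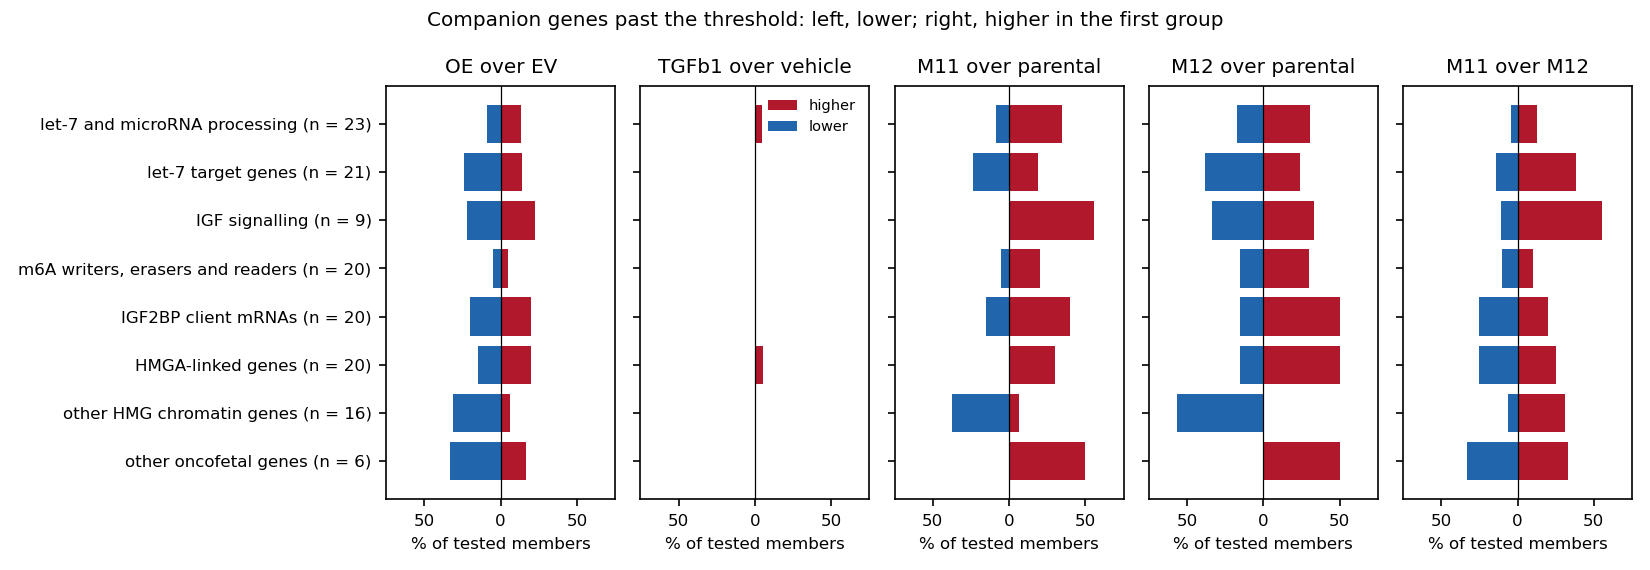
Percent of the fitted genes of each of 8 companion lists (n beside each name) that passed the adjusted threshold of 0.05 in 5 comparisons, lower in the first group to the left and higher to the right. The list of other HMG chromatin genes points left in M12 over parental (9 of 16 lower, 0 higher), where 50.1% of all genes passed in either direction. The TGFb1 over vehicle panel holds 2 genes in all.

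Genes linked to HMGA proteins in the literature gave 4 higher and 3 lower of 20 with ZBTB18 (35% beside 28.4% of all genes). Plau, the urokinase protease, fell to 10.47 ± 0.755 CPM, where empty vector had 53.9 ± 15.9 CPM (-2.36, SE 0.32, adjusted p = 3.25e-05, edgeR), and Rb1, the retinoblastoma tumour suppressor, rose (1.15, SE 0.14, adjusted p = 1.98e-06). In M12 over parental 10 rose and 3 fell (65% beside 50.1% of all genes). Plau was at 143.5 ± 66.0 CPM in M12 against 29.7 ± 5.51 CPM in the parental line (2.27, SE 0.31, adjusted p = 1.38e-05). Snai2, an inducer of mesenchymal transition, was at 1.34 ± 0.219 CPM in M12 against 0.0759 ± 0.0657 CPM in the parental line (4.06, SE 0.57, adjusted p = 7.33e-06). In M11 over parental 6 rose and 0 fell (30% beside 40.7% of all genes). Rb1 was among those that rose (0.81, SE 0.14, adjusted p = 0.000107).

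Of 16 other HMG-box and nucleosome-binding genes, 1 rose and 6 fell in M11 over parental (median log2 -0.06), 43.75% beside 40.7% of all genes. In M12 over parental 0 rose and 9 fell (median -0.24, beside -0.01 for all genes). That was 56.25% past the threshold, near the 50.1% of all genes that passed in either direction. Hmgb2, a DNA-bending protein of dividing cells, was at 222.6 ± 12.8 CPM in M11 and 180.3 ± 18.2 CPM in M12 against 407.9 ± 40.2 CPM in the parental line (-0.87, SE 0.10, adjusted p = 5.38e-07, and -1.18, SE 0.10, adjusted p = 5.17e-09, edgeR). Hmga1 and Hmga2 stood higher in the same lines. With ZBTB18 1 rose and 5 fell (37.5% beside 28.4% of all genes). The one that rose was Hmgn3, a nucleosome-binding protein (0.99, SE 0.10, adjusted p = 2.84e-07).

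Among 20 other oncofetal genes only 6 were fitted, as H19, Dlk1, Gpc3, Sall4 and others did not pass the filter. Afp, the fetal serum protein of liver and yolk sac, was at 0.392 ± 0.0747 CPM with ZBTB18, where empty vector had 3.73 ± 0.442 CPM (-3.23, SE 0.42, adjusted p = 1.31e-05, edgeR). It reached 18.3 ± 6.96 CPM in M11 and 49.3 ± 19.6 CPM in M12, against 0.735 ± 0.330 CPM in the parental line (25.1-fold, adjusted p = 4.08e-08, and 67.3-fold, adjusted p = 1.03e-09). Between ZBTB18 and empty vector Afp and Lin28b were both lower, whereas in the metastatic lines Afp was higher and Lin28b lower. Of the 6, 1 rose and 2 fell with ZBTB18 (50% beside 28.4% of all genes). In each of M11 and M12 over parental 3 rose and 0 fell (50% beside 40.7% and 50.1%).

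Likeness was measured as the root mean square difference of 7 group means, centred, on the scale of log2(CPM + 0.5), for members whose means span at least 2 on it. The values have no test and say nothing of shared control. Closest to Hmga2 were Ndrg2 (0.11), Syt7 (0.16), Pdlim5 (0.24) and Ptprn (0.25). Ndrg2 had mean levels of 49.96 CPM with ZBTB18, 25.0 with empty vector and 11.8 in the parental line. Closest to Lin28b were Mmp3 (0.25), Chn1 (0.29), Faah (0.33) and Nrg2 (0.33), with Chn1 at 1.22 CPM with ZBTB18, 11.2 with empty vector and 7.14 in the parental line. Closest to Igf2bp1 were Anxa3 (0.34), Cxcl10 (0.37), Hacd4 (0.39) and Htr5b (0.41), and Anxa3 had 82.0 CPM in M11, 183.3 in M12 and 177.1 in the parental line. Hmga1 (span 1.31) and Igf2bp2 (span 0.62) did not reach the span.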

How the data were processed

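RNA was read from polyA-selected stranded libraries, per the labels' protocols. The authors deposited RSEM expected counts per gene, not normalised, and TPM. STAR 2.7.1a, RSEM, Trim Galore and GATK 4.1.2.0 are named, with build mm10, in the notes on processing by the submitters. RSEM shares out reads that match several genes, which bears on Hmga1 and Hmga1b, and 1.28% of the deposited counts were not whole and were rounded. Positions are from GENCODE vM21, which held 99.14% of the gene IDs.

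edgeR 4.0.16 in R 4.3.3 was run with TMM scaling, its filter on low counts (15432 genes left), 1 mean per group over 21 libraries and a robust quasi-likelihood F-test, two-sided, with Benjamini-Hochberg adjustment over all genes and a threshold of 0.05. SE is the log2 fold change divided by the root of F. CPM is given as mean ± SD of 3 libraries. On simulated counts for ZBTB18 over empty vector (15432 genes) the fit recovered 88% of genes changed by a log2 of 1 and 99% of those changed by 2. The changed genes were drawn from those averaging at least 1 CPM, and the libraries were simulated as independent. The recovery therefore does not cover lower genes or libraries that deviate together. Intervals cover counting error only. Genes of a list were named when among the 3 largest log2 fold changes past the threshold, with at least 1 CPM in the higher group and no overlap between libraries, and Lin28a, Igf2, other genes that were not fitted and the neighbours of members were named outside that rule. Of the genes that the rule names, 1 is left out and is not reported here. The members and lists were chosen with earlier results of these data known. Same-numbered libraries deviated together (correlations of 0.48, 0.23 and 0.54) for TGF-β1 and vehicle and (0.22, 0.44 and 0.29) for M11 and M12. The labels state no pairing, and the main fit has none. The replicate block takes same-numbered libraries as matched. Alternatives were other size factors, DESeq2 1.42.0, limma 3.58.1 on log2(TPM + 1) and log2(TPM + 0.1), other filters, a replicate block, 6 libraries alone and single libraries left out. Chosen after seeing the data were the block in 6 libraries alone and the sum of Hmga1 and Hmga1b.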

Additional observations from a re-analysis of the deposited data

Results flagged for a closer look

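In 5 of the 126 fitted companion genes every M11 library lay on one side of all parental libraries and every M12 library on the other. In these the difference between the lines also passed edgeR's quasi-likelihood test, as it did in 35.5% of all genes. Tet1, a methylcytosine dioxygenase, averaged 1.14 CPM in M11, 0.139 CPM in M12 and 0.625 CPM in the parental line (log2 of M11 over M12 2.99, adjusted p = 2.42e-06). Nme4, a mitochondrial nucleotide kinase, was above parental in M11 and below it in M12 (0.99, adjusted p = 1.80e-07), as were Insr, the insulin receptor (0.70, adjusted p = 9.01e-07), and Hmgxb4, an HMG-box protein (0.51, adjusted p = 0.000274). Tgfbr1, a TGF-β receptor, went the other way (-1.10, adjusted p = 4.60e-08), at 14.2 CPM in M11, 30.4 CPM in M12 and 18.7 CPM in the parental line. None of the 6 oncofetal genes showed this pattern. How many of all fitted genes showed it was not counted, so neither count can be judged against a background.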

How the results depend on the processing

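Counts of genes past the threshold stayed within 1.5 times in 85 refits and moved further in 15, those of companion genes in 84 and 16, and those of members in 92 and 8, and no value changed sign with its call. TGF-β1 over vehicle moved most. Its 295 genes became 574 by DESeq2, 633 with no filter, 112 and 81 by limma on log2(TPM + 1) and log2(TPM + 0.1), 1349 in the 6 libraries alone, 3623 there with a replicate block, and 71 to 183 with single libraries left out (71 without vehicle replicate 2). Its 2 companion genes became 4, 6, 1, 1, 11 and 38 in the same order, 4 with the replicate block in all libraries, and 1 to 1 with single libraries left out. The 6 libraries alone gave 4015 genes for M11 over parental, 5113 genes and 41 companion genes for M12 over parental, and 3497 genes for M11 over M12. Vehicle over ZBTB18 had 37 and 37 companion genes by limma at the larger and smaller offset. Members past 2-fold without overlap numbered 1 for ZBTB18 over empty vector, 1 for M11 over parental and 1 for vehicle over ZBTB18 by limma on log2(TPM + 1). They numbered 3 for empty vector over parental at both offsets and 1 to 2 with single libraries left out (2 without parental replicate 3), 2 for M11 over M12 with no filter, and 1 for vehicle over ZBTB18 in the 6 libraries alone. The offset shrinks the fold of Lin28b, whose mean TPM is below 1, and its log2 difference of ZBTB18 over empty vector was -0.81 and -2.33 at the larger and smaller offset. It was -3.45 without ZBTB18 replicate 1 and -2.72 without ZBTB18 replicate 2. The cause of the other moves was not tested. Apart from the counts of TGF-β1 over vehicle given above, the replicate block changed no count by more than 1.5 times, and it gave 4797 genes for ZBTB18 over empty vector. Named companion genes kept the call in 1799 refits and lost it in 72. Few reads limit what can be said of Lin28b in the receptor groups and of Igf2bp3 throughout.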
